A study of Mus musculus with 11 samples.

Results

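Basal gene expression was described in the livers of 3 vehicle-injected mice, the control group of a study of 11 animals. All symbols on the array were ranked by the mean signal, over these 3 livers, of the brightest probe that the deposited detection p-value put under 0.05 on each of the 3 arrays. By this rule 10171 of 31508 symbols (32.3%) were detected and ranked, and the spread of each between the 3 animals was measured. In the study, mice received vehicle or 5'-adenosine monophosphate at 0.5 mg per g of weight, and liver total RNA of each animal was hybridised to its own array, an Illumina mouse BeadChip. The mice that received the nucleotide (8 arrays) were not used. The control animals are labelled as female C57Bl/6 mice, and the labels used here give neither their age, nor the composition of the vehicle, nor the hour at which they were killed.

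The liver is made up mostly of hepatocytes, which secrete the bulk of the plasma proteins, detoxify drugs and ammonia, make bile acids and cholesterol, and store and release glucose and lipid. Kupffer cells, sinusoidal endothelial cells, stellate cells and bile duct cells make up the remainder. In mice many hepatocyte genes differ between the sexes, under the control of the pattern of growth hormone secretion, and many follow feeding and the circadian clock.

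Signals are the scanner's intensity units unless a normalised log2 value is named. Between 15174 and 15663 of the 45281 probes were detected on each array, and the mean signal of an array was 422 to 542. Probes with a detection p above 0.5 read 75.3 to 83.3 (median per array). Control 3 was the dimmest array (mean signal 422, against 511 for control 1 and 542 for control 2). Across detected symbols, which are not independent replicates, the normalised log2 signals of pairs of livers correlated at 0.9901 for controls 1 and 2, 0.9845 for controls 1 and 3 and 0.984 for controls 2 and 3 (Pearson). The 3 arrays lay on 3 different chips, so chip and animal cannot be told apart anywhere in these results, and their number limits the precision. Just inside the detection threshold, Bmf read 116, 122 and 108 in controls 1, 2 and 3, and just outside it C130081G24 read 123, 121 and 113. These neighbours of the threshold had signals of the same size.

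The brightest symbols were the products of a secreting, oxidising hepatocyte. Gpx1, a selenium-dependent glutathione peroxidase that removes peroxides, read 53546, 49691 and 45938 in controls 1, 2 and 3 (49725 ± 3804, SD, n = 3). The iron carrier transferrin (Trf) read 51092, 52484 and 42117 and was at rank 3. Serpina1c, one of several mouse genes for the protease inhibitor alpha-1-antitrypsin, read 52520, 47610 and 44436 at rank 4. In each of these, control 3 was the lowest liver, as on the array as a whole. The 20 brightest symbols also held the lipoprotein components Apoa2 and Apoc3, the kininogen Kng1, the alpha-1-microglobulin precursor Ambp, the haem carrier haemopexin (listed as Hpxn, now Hpx), the antitrypsin genes Serpina1b and Serpina1d, the thyroid hormone and retinol carrier Ttr, the alcohol dehydrogenase Adh1 and the ferritin heavy chain Fth1. Beside these stood probes for 18S ribosomal RNA at ranks 8 and 16, the mitochondrially encoded mtDNA_COXIII, mtDNA_ND4 and mt-Cytb, and LOC383981 and 0610040O15Rik, to which no function is assigned here.

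The order among the brightest symbols was not resolved. The 3 values overlapped in 19 of 19 pairs of neighbouring ranks within the 20 brightest. These values were not scaled between arrays, so the dimness of control 3 adds to the overlap. Compared within each array, the symbol ranked higher was the brighter on all 3 arrays in 1 of the 19 pairs, LOC383981 over Trf. The mean signal at rank 20 was still 42421 ± 4493 (mt-Cytb, SD, n = 3), and no member of the 20 stood below rank 26 on any single array. The 20 brightest held 5.71% ± 0.276 of the summed signal of detected symbols, the 100 brightest 21.3% ± 0.469 and the 1000 brightest 65.8% ± 0.584 (SD, n = 3 livers). The highest signals on the arrays were 53546, 53443 and 45938 in controls 1, 2 and 3. Whether the range of the array limited signals of this size was not tested. These are shares of signal and not of transcripts. In all, 26 symbols averaged above 40000, 345 above 10000 and 2645 above 1000.

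**Figure D1:**
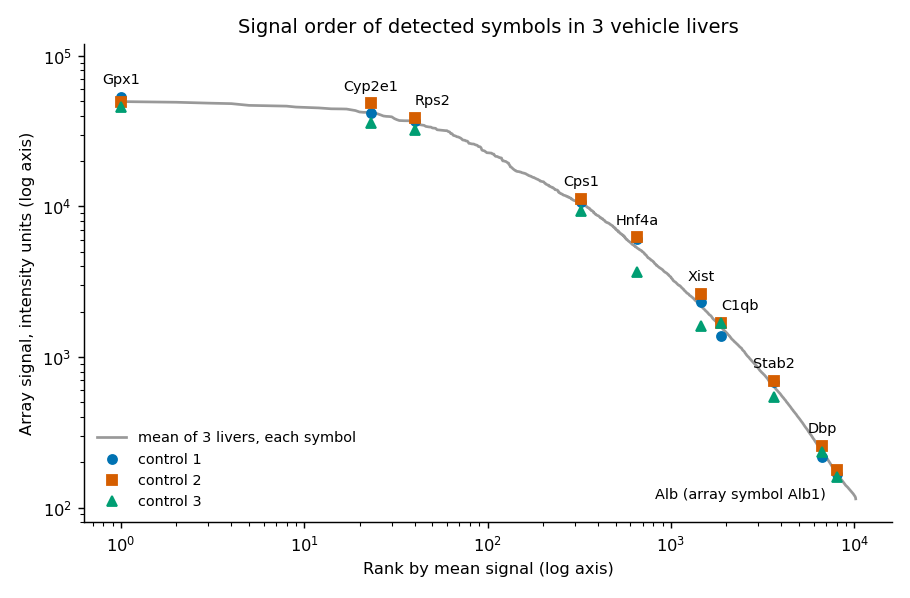
Mean signal of the 10171 detected symbols against their rank (both axes logarithmic, grey line), with the signals of 10 symbols in controls 1, 2 and 3 as points. The curve was nearly flat over the first 20 ranks, from 49725 to 42421, and the albumin probe lay near its lower end at 160 to 178.

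A signal also depends on its probe, so the order is one of signals and not of transcript numbers. Albumin (listed as Alb1), the main plasma protein, is represented by 1 probe, which read 168, 178 and 160 in controls 1, 2 and 3, at rank 8021. The metallothioneins Mt1 and Mt2, small metal-binding proteins, gave 39375 ± 7204 and 234 ± 47.6 (SD, n = 3), at ranks 30 and 6687. Neither low value can be read as a low transcript level. Of the 2618 symbols with at least 2 detected probes, the brightest and the next probe differed by a median of 1.0 log2 unit, and in 707 by more than 2.

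Stretches of 250 bases upstream of the annotated start were taken from RefSeq (GRCm38.p6) for 3 of the bright genes, a secreted protein, a liver enzyme and a ribosomal protein that every cell makes, to show how their promoter letters differ. Capitals mark a match to TATAAA, the TATA box, or to GTTAAT, an arm of the palindrome bound by the hepatocyte factor HNF1, with both strands searched. Serpina1c (chr12:103904951-103905200, minus strand, rank 4) had GTTAAT at position -27 from the start. Cyp2e1, the ethanol-oxidising cytochrome P450 (chr7:140763569-140763818, plus strand, rank 23), had TATAAA at -31. Rps2, a protein of the small ribosomal subunit (chr17:24719813-24720062, plus strand, rank 40), had its match to TATAAA on the opposite strand at -137, and its window held 29 CG dinucleotides against 3 for Serpina1c and 2 for Cyp2e1.
Serpina1c: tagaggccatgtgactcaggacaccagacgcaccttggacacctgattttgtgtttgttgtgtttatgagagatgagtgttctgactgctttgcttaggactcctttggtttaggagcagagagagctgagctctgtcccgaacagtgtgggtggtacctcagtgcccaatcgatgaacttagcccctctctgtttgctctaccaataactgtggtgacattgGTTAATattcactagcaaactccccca
Cyp2e1: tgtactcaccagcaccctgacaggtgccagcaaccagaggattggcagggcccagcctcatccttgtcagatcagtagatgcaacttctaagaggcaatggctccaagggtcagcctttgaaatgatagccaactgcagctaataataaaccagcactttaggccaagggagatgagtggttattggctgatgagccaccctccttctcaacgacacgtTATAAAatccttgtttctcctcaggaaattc
Rps2: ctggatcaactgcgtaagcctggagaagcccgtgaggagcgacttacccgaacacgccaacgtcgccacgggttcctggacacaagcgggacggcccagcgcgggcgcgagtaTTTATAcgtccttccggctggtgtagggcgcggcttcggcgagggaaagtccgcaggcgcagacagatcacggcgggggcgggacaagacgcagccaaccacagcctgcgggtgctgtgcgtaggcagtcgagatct

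The same letters were counted in all windows. TATAAA stood in 37.5% of the 16 plasma transport protein genes with a window, in 21.7% of the 60 such genes among the 100 brightest symbols and in 6.0% of 50 ribosomal protein genes, against 7.89% of the 6201 detected genes ranked below 1000 and 14.3% of all 27025 genes. GTTAAT stood in 4 of the 16 plasma transport, 12 of the 60 brightest and 2 of the 50 ribosomal protein genes, against 4.89% of those ranked below 1000 and 7.49% of all genes. The median number of CG dinucleotides per window was 3.25 for plasma transport proteins, 5 for the 100 brightest and 18 for ribosomal proteins, against 6 for all genes and 16 for the 6201 genes ranked below 1000. A match describes the letters of the window and does not show that a factor binds there.

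Plasma transport proteins, major urinary proteins, and protease inhibitors and fetuins held the best median ranks of any list examined (40, 88 and 133). Members are described by rank because each has its own probe. Of 24 plasma transport proteins on the array, 22 were detected at a median rank of 40, against 5086 for all detected symbols, and 13 were among the 100 brightest. Apoa2, an apolipoprotein of high-density lipoprotein, read 46884, 52534 and 41338, and Ambp read 46760, 49760 and 43188. Apoa1, the main apolipoprotein of the same particle, read 44552, 35679 and 30990 at rank 37. Gc and Fabp1, the latter a cytosolic protein that the list also held, were not detected on all 3 arrays. As for albumin, this cannot be read as a low transcript level. Of 25 protease inhibitors and fetuins, 24 were detected at a median rank of 133, with Pzp the exception. Coagulation and fibrinolysis proteins ranked lower (15 of 16 detected, median rank 433), led by the fibrinogen chain Fga at 33886, 34118 and 31644 and by plasminogen (Plg) at rank 97. Complement proteins had 18 of 20 detected at a median rank of 1119, from C3, the central component, at 27200, 30398 and 20768, down to rank 5795. Cfd, a protease of the alternative pathway, was the most variable of them, at 285, 663 and 255. The 5 major urinary proteins, pheromone carriers secreted by the liver into the urine, ranged from Mup3 at 41416, 46901 and 35561 to Mup4 at 970, 681 and 610. They are near-identical genes whose probes may share targets, so their order is uncertain.

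Acute phase proteins, whose synthesis rises in inflammation, were detected for 18 of 20 members at ranks from 11 to 9692. Hpx and haptoglobin (Hp), which bind haem and haemoglobin, read 41149 to 48913 and 33621 to 46909. Saa1, serum amyloid A, read 1390, 2450 and 3386, and the siderophore-binding Lcn2 read 467, 855 and 1878. Both were lowest in control 1 and highest in control 3. The iron regulator hepcidin (Hamp) read 32123, 21129 and 17386, and control 1 was the highest.

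Median ranks of the lists of intermediary metabolism ran from 496 for amino acid breakdown to 3379 for gluconeogenesis. Of 33 amino acid breakdown genes 32 were detected (median rank 496). Their brightest members were Gnmt, which disposes of methyl groups, at 43811, 40831 and 37202, and Mat1a, which makes S-adenosylmethionine, at 36788, 37347 and 29544. Tat was not detected on all 3 arrays. Urea cycle genes were detected for 8 of 9 members, with argininosuccinate synthetase (Ass1) at 21964, 18397 and 20670, arginase (Arg1) at 17129, 17955 and 14775 and carbamoyl phosphate synthetase (Cps1) at 10653, 11257 and 9296. Arg1 and Cps1 differed little between animals (log2 SD 0.03 and 0.05), and Ass1 had a log2 SD of 0.28. Otc, which forms citrulline, read 564, 591 and 201 and was the list's most variable member (log2 SD 0.83, not called by the spread test, adjusted p = 0.558). Among gluconeogenic genes (13 of 14 detected, median rank 3379) the glucose-6-phosphatase G6pc led with 11484, 13915 and 10159. Pck1, which makes phosphoenolpyruvate, read 206, 435 and 199, with control 2 the highest. Glycolysis and glycogen genes were detected for 15 of 20 members (median rank 1148), from Gapdh at 33589, 35667 and 27436 down to rank 9934. The regulated pyruvate kinase Pklr, the most variable of them, read 337, 249 and 132.

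In lipid metabolism, fatty acid oxidation and ketogenesis had 21 of 25 members detected (median rank 879), fatty acid synthesis 19 of 22 (median rank 1316), bile acid genes 15 of 20 (median rank 785) and cholesterol synthesis 22 of 23 (median rank 3071). The omega-hydroxylase Cyp4a10 read 33515, 40749 and 25021. Hmgcs1, an early enzyme that feeds cholesterol synthesis, read 37695, 30687 and 44682 and was the brightest member of that list. Cyp4a10 was highest in control 2 and Hmgcs1 in control 3. The desaturase Scd1 read 23223, 17469 and 6516, and Cyp7a1, the rate-limiting enzyme of bile acid synthesis, read 5101, 2344 and 4608. Cpt1a, Hadh, Hadha and Fdft1 were among the members not detected on all 3 arrays. Hadh (153, 162 and 98.8) missed the threshold in control 3 only and Fdft1 (122, 117 and 127) in control 2 only. Cpt1a and Hadha missed it in every liver. A missed detection, as with the albumin probe, cannot be read as a low transcript level.

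Cytochromes P450 of families 1 to 4 were detected for 31 of 41 members at a median rank of 346. Cyp2e1 read 41898, 48419 and 35618, and Cyp2c70, which hydroxylates bile acids in the mouse, read 28198, 31841 and 20886. Among conjugation enzymes 34 of 39 were detected (median rank 1560), led by the glutathione transferases Gsta3 at 34968, 34697 and 26837 and Mgst1 at 30824, 31137 and 29238.

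General cell machinery was bright, with a spread between livers close to that of other bright symbols. The 70 detected of 73 cytosolic ribosomal protein genes had a median rank of 354 and a median log2 SD between livers of 0.13, against 0.12 for the brightest 1017 symbols and 0.175 for all detected symbols, from Rplp1 at 38507, 42335 and 34134 downwards. The 43 detected of 47 respiratory chain genes had a median rank of 429 and a median log2 SD of 0.12, led by the ATP synthase subunits Atp5b and Atp5g3. Plasma transport proteins and housekeeping genes had median log2 SDs of 0.11 each. Near-identical processed copies exist for many ribosomal protein genes, and whether a probe also reads them was not tested.

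Regulators were dimmer. Of 23 liver transcription factors 20 were detected at a median rank of 3076, led by Hnf4a, a nuclear receptor that maintains hepatocyte identity, at 6073, 6232 and 3644. Foxa3, a forkhead factor, read 4597, 5419 and 4225, and the bile acid receptor Nr1h4 read 4450, 4975 and 4237. Circadian clock genes were detected for 14 of 20 members (median rank 5808). Nfil3 read 3290, 3728 and 2487, Arntl (Bmal1) 355, 434 and 254, Dbp 217, 257 and 235 and the repressor Nr1d1 146, 218 and 124. Per1, Per3, Cry1, Hlf, Ciart and Bhlhe41 were not detected on all 3 arrays, with Per1 at 114 to 127. Immediate early genes had 14 of 26 detected (53.8%). Fos, Atf3, Myc, Nr4a1 and Egr2 were among the 12 that were not.

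**Figure D2:**
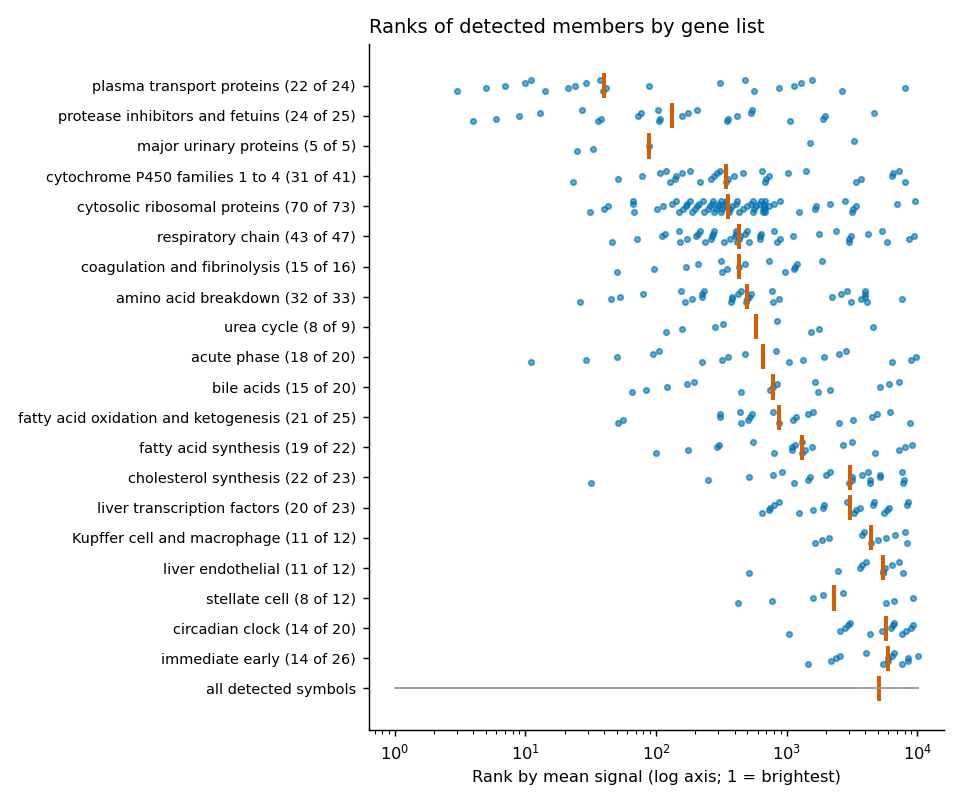
Rank of each detected member (blue points, log axis) and the median (orange bar) for 20 gene lists, with the number detected of the number on the array. Plasma transport proteins had a median rank of 40 and immediate early genes one of 5969, against 5086 for all detected symbols.

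The labelled tissue matched its markers. Of 12 hepatocyte markers 11 were detected at a median rank of 262, with Ttr at rank 14 and Tat the exception. Kupffer cell markers were detected for 11 of 12 members, with the complement receptor Vsig4 at 1612, 2296 and 1696 and the lectin Clec4f at 1154, 1453 and 1508. Liver endothelial markers were detected for 11 of 12 (Clec4g at 7234, 7232 and 5796), stellate cell markers for 8 of 12 (Dcn at 8179, 8969 and 7651), and bile duct markers for 4 of 9. The fibrillar collagens Col1a1, Col1a2 and Col3a1, made by activated stellate cells, were not detected on all 3 arrays. In these bulk samples, fewer cells of a type and less RNA per cell cannot be told apart.

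Markers of other tissues were mostly near background. None of 6 testis markers was detected on all 3 arrays, and 1 of 7 neuronal, 1 of 9 muscle, 1 of 7 adipose, 2 of 12 T and NK cell and 1 of 8 neutrophil markers were. Of 13 genes expressed in fetal liver 2 were detected, Igf2 and Gpc3, both near the threshold, and Afp read 76.4, 89.4 and 81.8. Of 14 pancreas markers 2 were detected, the amylase Amy2 at 11244, 13514 and 10036 and Cela1 at 1013, 1293 and 876. Whether the Amy2 probe also reads other amylase genes was not tested.

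Between animals, most symbols varied little. The median SD of the normalised log2 signal over the 3 livers was 0.175, the middle 50% of symbols lay between 0.106 and 0.267, and 15 symbols exceeded 1. The median was 0.12 in the 1017 brightest symbols and 0.235 in the 1017 whose signals ran from 137 to 164. A limma test of each symbol's variance against that of symbols of like signal called 3 of 10171 symbols (0.0295%, adjusted p under 0.05 by Benjamini and Hochberg). An unadjusted p under 0.05 was found for 569 of the 10171, a threshold that a share of about 0.05 passes when no symbol differs. With 3 animals the test had 2 degrees of freedom per symbol, and no list was tested.

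**Figure D3:**
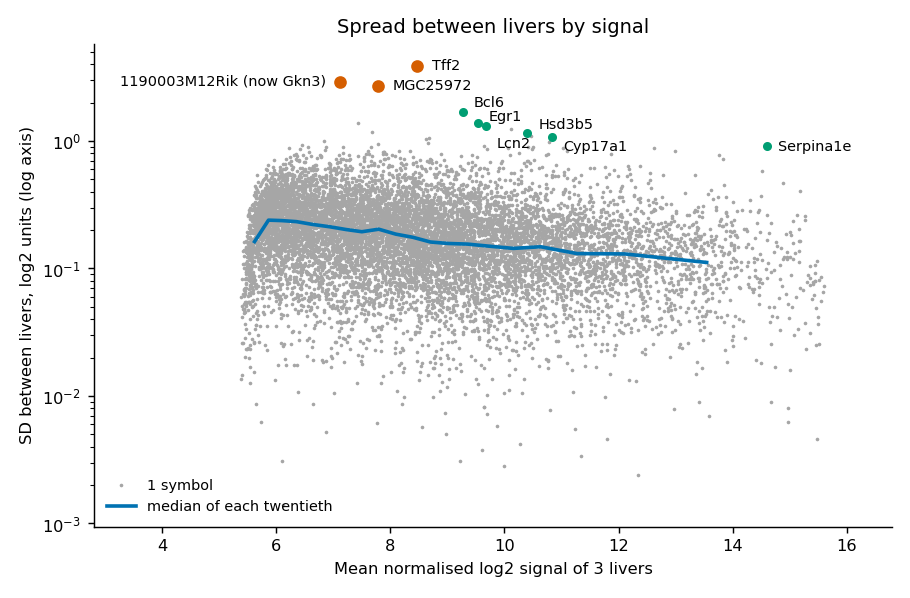
SD between the 3 livers (log axis) against the mean normalised log2 signal, 1 grey point per symbol, with the running median in blue. The 3 symbols called by the variance test (orange) had SDs of 2.70 to 3.88, and 6 others described in the text are in green. The 1 symbol with an SD of 0 cannot be drawn on this axis.

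All 3 called symbols were high in control 2 alone. Tff2, a trefoil peptide of gastric and duodenal mucus, read 8703 in control 2, against 133 and 152 in controls 1 and 3 (log2 SD 3.88, adjusted p = 0.00232, limma). The symbol 1190003M12Rik (now Gkn3, a gastrokine) read 1678, against 122 and 103 (log2 SD 2.90, adjusted p = 0.0142, limma). Its second probe read 1303, against 70.2 and 86.3. MGC25972, for which the annotation used gave no current name, read 2126, against 199 and 109 (log2 SD 2.70, adjusted p = 0.0142, limma). 1190003M12Rik and MGC25972 fall outside the naming rule and were taken up after their values were seen, because only 3 symbols were called. The calls rest on control 2: without it none of the 3 passed, and without control 1 Tff2 alone was called, with an adjusted p of 0.0583 for the others. Without control 3 there were 7 calls, these 3 among them. None was called with an untrended prior variance, where the adjusted p was 0.162 for Tff2 and 0.241 for the others.

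The same liver stood out by size of signal, and not by number, among symbols that failed the detection rule. Of the 21337 symbols not detected on all 3 arrays, 635 were detected in control 1 alone, 374 in control 2 alone and 550 in control 3 alone. With the further condition of at least 2-fold the signal of both other livers, 10 (0.0469%) remained for control 2, against 0 for control 1 and 0 for control 3. They were chosen by this contrast, and their values are a description made after the data were seen. The brightest were Prap1, a secreted protein of the gut epithelium, at 794.8 in control 2 against 90.9 and 82.2, and Cyp4a12, a cytochrome P450 that is male-biased in mouse liver, at 523 against 110.0 and 99.6. Others were the insulin genes Ins2 (495 against 89.7 and 87.6) and Ins1 (230.5 against 103.6 and 92.9), 1810010M01Rik (now Zg16, of secretory granules; 436 against 70.9 and 74.3), Ly64 (now Muc13, an epithelial mucin; 332 against 78.1 and 77.2), the pepsinogen Pgc (226 against 82.8 and 83.1) and the mucin Muc6 (169 against 77.4 and 84.4). Among exocrine pancreas markers, Reg1 read 724 in control 2 against 88.0 and 154, Clps 144 against 79.2 and 79.2 and Pnliprp1 119 against 75.1 and 76.1. Pnlip (85.3 against 81.3 and 64.0), Cel, Prss2 and Cpa1 were near background in all 3 livers. Of 15 gastric genes listed after the data were seen, 2 were detected on all 3 arrays, and the acid pump subunit Atp4a (123 against 98.6 and 107) and Gkn1 (98.5 against 97.9 and 89.8) were not. Whether tissue of stomach, gut or pancreas was in this sample was not tested.

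Control 2 also had higher signals of male-biased genes, although all 3 animals are labelled female. Bcl6, a repressor that is higher in male mouse liver, read 2740 in control 2, against 413 and 319 in controls 1 and 3 (log2 SD 1.68, adjusted p = 0.0600, limma). The male-biased steroid enzyme Hsd3b5 read 3795, against 1205 and 638 (log2 SD 1.16, adjusted p = 0.151, limma), and the fatty acid elongase Elovl3 665, against 194 and 185. Cyp2d9 read 14423, against 4586 and 3876, and Serpina1e 43167, against 12464 and 27333. The median deviation of the 16 detected male-biased genes from their 3-liver means was 0.53 log2 units above that of all detected symbols in control 2, against -0.28 in control 1 and -0.25 in control 3, and 11 of 16 were highest in control 2, against 28.4% of all detected symbols. In the female-biased list (12 of 22 detected) 5 of 12 were lowest in control 2 by normalised signal, against 34.7% of all detected symbols, and 5 of 12 were highest there, against 28.4%. The median of this list was -0.02 from that of all symbols in control 2. By signal before normalisation, the steroid hydroxylase Cyp17a1 was lowest in control 2 (961, against 2782 and 2648), as was Cyp2b13 (4860, against 13496 and 8016). Cyp2a4 (11556, against 13023 and 8370) and Cyp4a14 (12763, against 9686 and 9775) were not lowest there, before or after normalisation. Cyp2b9 (9183, against 11134 and 8901) was lowest in control 2 by normalised signal only. None of these sex-biased genes passed the variance test.

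Chromosomal sex markers were as follows. Xist, the RNA of the inactive X chromosome, was detected in each liver, at 2623 in control 2, against 2334 and 1600 in controls 1 and 3. The Y-linked Uty, Eif2s3y, Zfy1, Kdm5d and Sry were not detected on all 3 arrays. A gene present in control 2 alone would fail this rule too, so it does not describe that liver by itself. None of them was among the 10 symbols detected in control 2 alone at 2-fold or more above both other livers. Ddx3y was, at 200 in control 2, against 264 and 135, and it has a close homologue on the X chromosome. Whether the sex-biased values and the gastric and insulin signals of control 2 have a common source was not tested.

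Control 2 also stood apart in erythroid markers and in some single genes. All 4 detected erythroid markers of 8 were highest in it, against 28.4% of all detected symbols, with the globin Hba-a1 at 35225, against 15458 and 22936, and Hbb-b1 at 20293, against 10579 and 14770. The growth-induced transcription factor Egr1 read 2497, against 426 and 534 (adjusted p = 0.116, limma), and Thrsp, a lipogenic gene, 999, against 3043 and 1995 (adjusted p = 0.196, limma). Immediate early genes as a list were not high in control 2. Their median was -0.03 from that of all symbols, with 3 of 14 highest there (6 with median centring). Fatty acid oxidation genes had a median 0.21 log2 units above all symbols in control 2, with 15 of 21 highest there, and interferon-induced and MHC genes one of -0.19, with 1 of 26 highest there. With median centring in place of quantile normalisation 53.7% of all detected symbols were highest in control 2, and these counts were 4 of 4 erythroid, 17 of 21 oxidation and 6 of 26 interferon and MHC genes. The bile acid enzyme Cyp7a1 was lowest in the same liver, at 2344, against the direction of its list. Bile acid genes had a median 0.16 log2 units above all symbols in control 2. Of the 15 detected, 9 were highest there (12 with median centring) and 2 lowest.

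**Figure D4:**
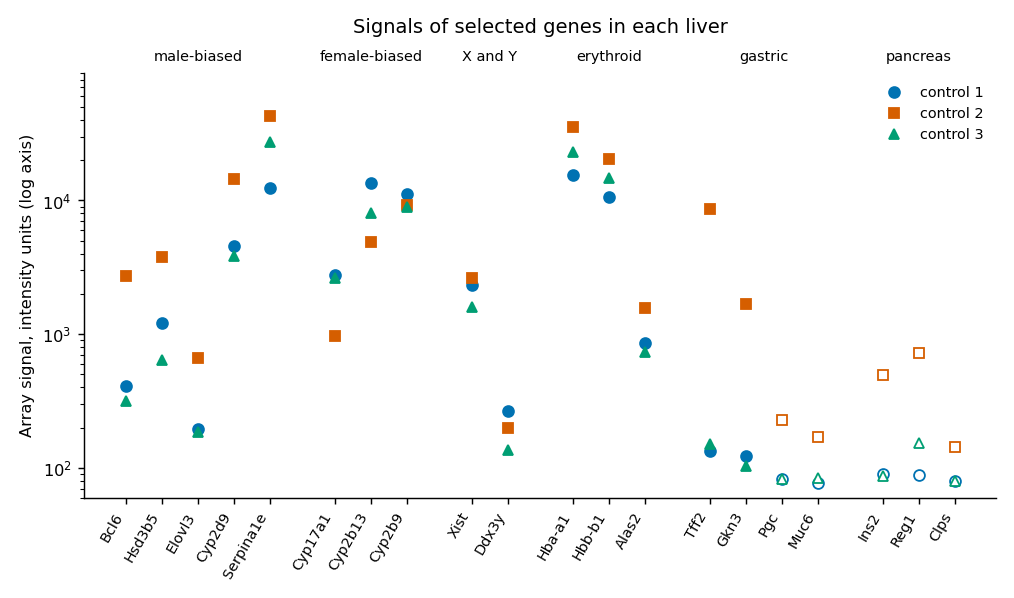
Signals (log axis) of 20 genes in controls 1, 2 and 3, grouped by list. Open symbols mark genes not detected on all 3 arrays. Control 2 was highest in the 5 male-biased, 3 erythroid, 4 gastric and 3 pancreas genes shown, and lowest in Cyp17a1 and Cyp2b13.

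Control 3 differed in a set of low values and in sterol genes. In it 155 symbols (1.52%) lay more than 1 log2 unit below the mean of the other livers, against 22 (0.216%) for control 1 and 15 (0.147%) for control 2. Among the named examples, Gsta1 read 209 in control 3, against 834 and 685, Gsta2 211, against 838 and 617, Dpyd, which degrades pyrimidines, 216, against 686 and 772, and the mitochondrial mtDNA_ND4L 547, against 2042 and 2877. The glutathione transferases Gsta1 and Gsta2 are close in sequence, so their probes may read both. Of these 155 symbols 25 had a second detected probe, and its median log2 SD was 0.266, against 0.665 for the brightest probe. The second probe was also lowest in control 3 in 14 of 25 symbols (56.0%), and over all 2618 symbols with a second probe the same liver was lowest in 49.1%. This array was also the dimmest, and the part of its brightness in these values was not tested.

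Cholesterol synthesis genes had a median 0.25 log2 units above that of all detected symbols in control 3, against -0.05 in control 1 and -0.23 in control 2. Of the 22 detected, 19 were highest in control 3, against 42.8% of all detected symbols. Median centring of the arrays in place of quantile normalisation moved the median of all symbols in control 3 from 0.03 to -0.12 and in control 2 from -0.01 to 0.11. Relative to it, the sterol list still lay 0.27 higher in control 3, with 13 of 22 highest there against 15.4% of all symbols. The mevalonate pathway enzymes Mvd and Mvk read 1077 and 470 in control 3, against 862 and 320 in control 1 and 568 and 324 in control 2. Acute phase genes had a median 0.10 above all symbols in control 3 (0.16 with median centring), with 12 of 18 highest there (7 of 18 with median centring).

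Control 1 had higher medians of lipogenic and chaperone genes and lower ones of erythroid, B and plasma cell and Kupffer cell markers. Fatty acid synthesis genes had a median 0.20 log2 units above all symbols in it, with 11 of 19 highest there, against 28.8% of all detected symbols. Scd1 was highest in it at 23223, and the lipogenic Thrsp at 3043. Heat shock and endoplasmic reticulum chaperones had a median of 0.19 in control 1 and -0.20 in control 3, and 11 of 19 were highest in control 1. The constitutive chaperone Hspa8 read 29058 in control 1, against 25308 and 16098, and Creld2, induced by stress of the endoplasmic reticulum, 2370, against 1337 and 799. B and plasma cell markers (5 of 9 detected) had a low median in control 1 (-0.33), with 3 of 5 lowest there, against 34.2% of all detected symbols. Erythroid markers (median -0.57, 4 of 4 lowest there) and Kupffer cell markers (median -0.27, 6 of 11 lowest there) were low in it too. The interferon-induced and MHC list went the other way in control 1 (median 0.13, 13 of 26 highest there, against 28.8% of all detected symbols). Among the B and plasma cell genes, the light chain constant region Igk-C read 693, against 1899 and 1200. The heavy chain Igh-VJ558, which was not on that list, read 535, against 2680 and 1173 (log2 SD 1.23, adjusted p = 0.135, limma). The B cell surface markers Ms4a1 and Cd79a were not detected on all 3 arrays.

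**Figure D5:**
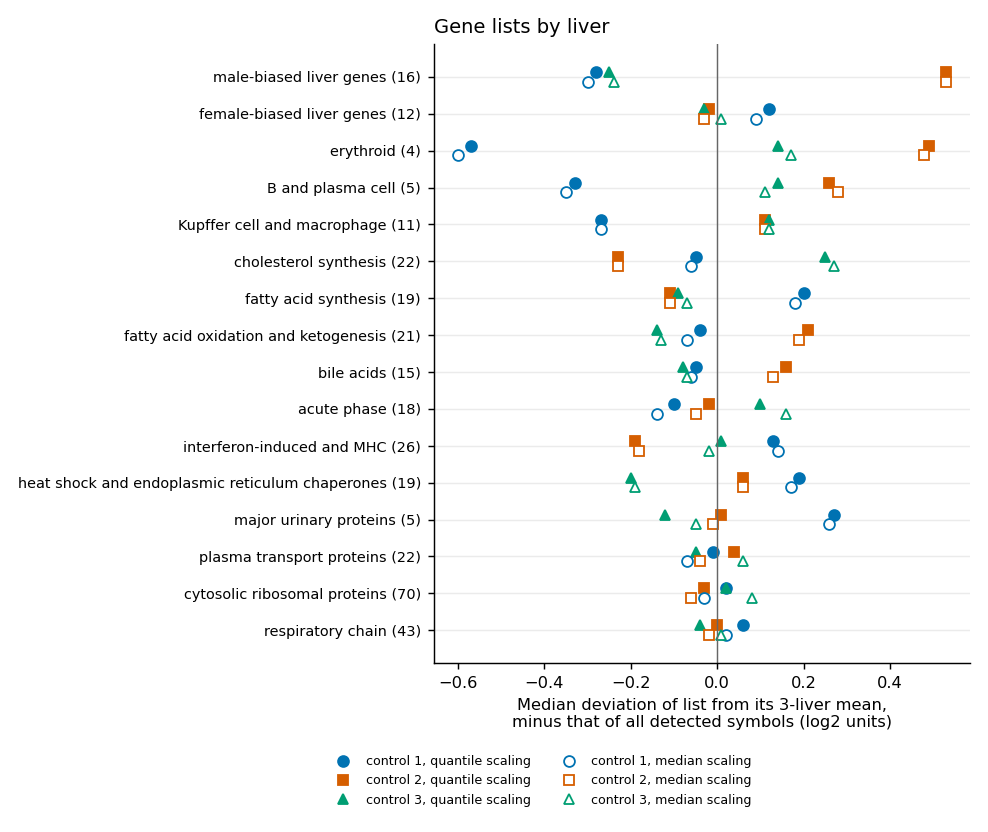
Median deviation of the detected members of 16 lists from their 3-liver means, less that of all detected symbols, in controls 1, 2 and 3, for quantile normalisation (filled) and median centring (open). Male-biased genes lay at 0.53 in control 2 and cholesterol synthesis genes at 0.25 in control 3, and the ribosomal, respiratory chain and plasma transport lists stayed within 0.08 of 0 under both scalings.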

How the data were processed

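Liver total RNA of 3 vehicle-injected mice was measured on Illumina mouse BeadChips, 1 array each. The authors deposited a mean bead signal (an intensity) and a detection p-value per probe, not normalised, per the file headers. Detection p-values run in steps of 1/936, so no probe carries a finer value. GenomeStudio is named in the submitters' processing notes, and its version and settings are not given in the sources used here. A second deposited table holds background-subtracted intensities that share 1 distribution across all 11 arrays, as judged from its values, and served only as an alternative. All deposited columns of values were mapped to samples.

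For each symbol the brightest probe with a detection p under 0.05 on all 3 arrays was ranked by its mean signal. No background was subtracted. For the spread, the 3 control arrays alone were corrected and quantile-normalised with neqc (limma 3.58.1 in R 4.3.3, background from detection p-values, offset 16), and the SD of the log2 signal was taken. The variance of each symbol was tested with limma against a prior trended on signal and robust to outliers (prior degrees of freedom 6.41), with Benjamini-Hochberg adjustment over all 10171 symbols and a threshold of 0.05. In simulated livers, of 100 symbols with the SD multiplied by 8 it called 53, of 100 with it multiplied by 32 it called 85, and of 9971 unchanged ones 1, so smaller differences can be missed.

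Lists (33 of genes, 15 of cell markers) were described by counts, ranks and median deviations, with no test. Their members and the lists were chosen with earlier results of these data known, and the gastric list after seeing these values. The genes named were the 20 brightest, the 12 of largest spread above the median signal (leaving out clone and predicted names, such as those ending in Rik or starting with MGC), the 3 brightest and 2 most variable detected members of each list mentioned, undetected members, symbols next to the threshold, and a fixed set including Alb, Pck1, Hamp and Xist. Array symbols were updated through RefSeq (GRCm38.p6). Of the detected symbols, 5777 matched by symbol, 3153 by synonym and 1241 not. The labels do not say that the animals were handled separately beyond naming 3 mice, so p-values measure only the spread between these samples. Alternatives were other normalisations, detection thresholds, probe rules and priors, and leaving out each array.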

Additional observations from a re-analysis of the deposited data

How the results depend on the processing

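The 3 arrays cannot separate animal from chip, and dim probes limit what a spread can show. No paired analysis was possible because only 1 group was used and nothing was compared between groups. The share of summed signal in the 100 brightest symbols was 21.3%, and 22.2% after neqc, 22.3% with the mean of a symbol's probes and 22.4% with background subtracted. The median log2 SD was 0.175, 0.127 without background correction, and 0.119 to 0.153 with 1 control left out, where it rests on 2 animals. The symbols with a larger spread than others numbered 3, with 0 under an untrended prior (465 of 10171 at unadjusted p under 0.05) and 0 at a detection p under 0.01 (511 of 8896 at unadjusted p under 0.05). At that threshold none of the 3 was detected on all arrays, so none was tested. The calls numbered 0 to 7 with 1 control left out, with 1 call without control 1, 0 without control 2 (552 of 10567 at unadjusted p under 0.05) and 7 without control 3, which included the same 3. Under median centring, no background correction, the authors' normalised values and the mean of probes, the same 3 were called. Detected symbols ranged from 8896 to 11291, and between 82 and 99 of the 100 brightest stayed among the 100 brightest, whatever their order. The list medians per liver in the 10 cases examined kept their direction under median centring and under the authors' values. The causes of these differences were otherwise not tested.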
